A study of Mus musculus with 12 samples.

Results

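Trp63, Lifr, Tril, Pdpn, Plet1, Ly6a, Mgp and Fmod are 8 genes linked with immature epithelium or with stroma, and they were followed in every library of medullary thymic epithelial cells (mTECs) analysed here. They were taken by name from a total of 50600 gene identifiers, after matching mouse Ensembl identifiers to symbols. They had been chosen because their levels were lower in mTEC hi than in mTEC lo, so that difference is given below as a description and carries no test. mTEC hi are cells with high surface MHC class II, and mTEC lo are cells with low surface MHC class II. Polyadenylated RNA of these cells was sequenced in 12 libraries, 6 per cell type, from thymus of mice 6 to 8 weeks old of the strain B6.B6CB-Psmb11tm1Smta. The mice were either Psmb11-deficient (Psmb11-/-) or wild type (WT, Psmb11+/+), and no group received a treatment. Psmb11 encodes beta5t, a proteasome subunit known from cortical thymic epithelium, and the labels name no cell type limit or Cre driver for the deletion.

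Genotypes were compared over 8 libraries, 2 Psmb11-deficient plus 2 WT per cell type, for which title, source name and strain were in accord. For 4 further libraries the title contradicted the source name and the strain, and these 4 entered only the comparison of cell types and the alternatives that say so. A library held between 38791960 and 86793594 reads on genes. Psmb11 stood at 0.847 and 1.30 CPM (reads of a gene relative to all gene reads of its library, scaled by TMM) in the Psmb11-deficient and 10.3 and 7.54 CPM in the WT mTEC hi libraries whose labels agreed. In mTEC lo the same gene stood at 1.63 and 1.17 CPM against 12.2 and 7.51 CPM. The mTEC hi and mTEC lo libraries titled WT whose labels were in conflict held 8.16 and 7.10 CPM of it, near the WT values, and those titled KO held 1.12 and 1.26 CPM, near the Psmb11-deficient values. None of these values placed a library in a group. No label ties a library to an animal, so the p-values reflect how far these libraries spread, and that spread may be technical. The labelled cell types were checked against their markers: Aire, the regulator of tissue-restricted antigens in mature mTECs, averaged 1979 CPM in mTEC hi and, in mTEC lo, 17.6 CPM, and the epithelial marker Epcam averaged 620.0 and 847 CPM.

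Medullary epithelium renews from immature cells that keep a basal keratinocyte-like programme under the transcription factor p63, the product of Trp63. As these cells mature they raise MHC class II and, in many of them, Aire. The low MHC class II gate is known to hold several kinds of cell, among them immature cells and cells that make the chemokine Ccl21a, which draws thymocytes into the medulla. The other 7 genes encode surface or secreted proteins. Lifr is the receptor subunit for leukaemia inhibitory factor and pairs with gp130, the product of Il6st. Tril is an accessory protein of Toll-like receptor signalling, and Pdpn (podoplanin) is a mucin-like membrane glycoprotein. Plet1 is a surface antigen of early thymic epithelium, and Ly6a (Sca-1) is a surface marker of stem cells and of many stromal cells. Mgp (matrix Gla protein) inhibits calcification of matrix and vessels, and Fmod (fibromodulin) binds collagen fibrils.

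All 8 genes are annotated as protein coding in GENCODE M21 on GRCm38. Trp63 lies at chr16:25683763-25892102 on the plus strand, Lifr at chr15:7090614-7197489 (plus), Tril at chr6:53815468-53820830 (minus) and Pdpn at chr4:143267431-143299564 (minus). Plet1 lies at chr9:50494525-50505482 (plus), Ly6a at chr15:74994877-74998031 (minus), Mgp at chr6:136872435-136875823 (minus) and Fmod at chr1:134037254-134048277 (plus). Exons of Plet1 overlap the antisense gene Plet1os on the opposite strand over 261 bases. Exons of Tril overlap 2 opposite-strand genes, both named Gm16499, over 293 and 857 bases. The read counts used here ignore strand and leave out reads that fall on such overlaps. They held 0.573 of the reads that the strand columns gave Plet1 when summed and 0.799 of those of Tril, against 1.0 for the other 6 genes. The absolute levels of Plet1 and Tril are therefore low on this scale.

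The 250 bases before the annotated start were read for the 5 genes with an entry among the RefSeq promoters of GRCm38.p6: Lifr (2 starts), Tril, Pdpn, Plet1 and Fmod. Trp63, Ly6a and Mgp had no entry. The windows of Plet1, Tril and Fmod are shown because Plet1 had the smallest difference between the cell types and Tril and Fmod had the largest ones among the genes with an entry. Capitals mark the letters of a motif named below, except the GC box and the CCAAT box, which are left in lower case.
Plet1, chr9:50494275-50494524, plus strand: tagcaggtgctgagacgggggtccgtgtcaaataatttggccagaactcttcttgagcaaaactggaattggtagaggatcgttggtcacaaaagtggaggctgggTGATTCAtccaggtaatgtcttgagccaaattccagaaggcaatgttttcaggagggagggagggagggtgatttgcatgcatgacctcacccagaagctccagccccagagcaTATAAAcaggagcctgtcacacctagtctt
Tril, chr6:53820826-53821075, minus strand: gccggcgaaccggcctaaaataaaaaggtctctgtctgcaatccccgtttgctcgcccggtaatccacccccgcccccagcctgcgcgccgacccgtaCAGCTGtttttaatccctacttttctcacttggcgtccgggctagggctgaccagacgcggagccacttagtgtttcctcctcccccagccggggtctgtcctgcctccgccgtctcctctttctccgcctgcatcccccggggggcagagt
Fmod, chr1:134037004-134037253, plus strand: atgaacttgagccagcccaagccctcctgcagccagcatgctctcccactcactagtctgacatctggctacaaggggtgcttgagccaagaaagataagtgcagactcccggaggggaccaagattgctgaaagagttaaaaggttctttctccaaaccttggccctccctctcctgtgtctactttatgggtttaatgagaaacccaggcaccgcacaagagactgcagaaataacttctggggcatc

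The windows were searched on both strands for 8 motifs, and the matches are descriptions of these letters. Plet1 held a TATA box (TATAAA, found in 12.4% of 32851 promoters) with its first base at -30 from the start, and an AP-1 motif (TGANTCA, 6.7%) at -144. It also held a CCAAT box (CCAAT, 33.8%) at -183. Tril held a GC box (GGGCGG, 32.7%) at -180 and the E-box CAGCTG (13.0%) at -152. Fmod and Pdpn matched none of the 8. Lifr matched GC boxes and the NF-kB motif (GGGA and CC with any 4 bases between, 17.6%) before its first start, and the NF-kB motif, the E-box and the CCAAT box before its second. The STAT motif (TTCNNNGAA, 7.0%) and the site of the p53 family searched by name (7.1%) were found in none of the 5 genes. The windows also differed in composition. GC content was 82.4% at the first start of Lifr, with 43 CpG, and 63.2% at Tril, with 20 CpG. It was 51.2% at Fmod and 43.2% at Pdpn, with 2 CpG each, against medians of 52.4% and 6 CpG over all promoters.

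Every one of the 8 genes was higher in each mTEC lo library than in any mTEC hi library. They differed widely in how far the cell types stood apart, from 2.41-fold for Plet1 to 26.5-fold for Mgp in mean CPM. Trp63 had 117, 125 and 133 CPM as its lowest, median and highest values in mTEC hi, and 512, 534 and 558 CPM in mTEC lo. Its log2 fold change (mTEC hi against mTEC lo, edgeR) was -2.09 with a standard error of 0.051, so mTEC hi kept 23.5% of the mTEC lo mean. Trp63 RNA was thus present in every mTEC hi library, the lowest of which had 4965 reads of it.

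The receptor subunit Lifr ranged from 78.5 to 86.4 CPM in mTEC hi (median 80.1) and, in mTEC lo, from 1261 to 1310 CPM (median 1269). The log2 fold change was -3.98 (SE 0.0513), a 15.8-fold difference in means. On the CPM scale Lifr had the smallest spread of the 8 genes in mTEC lo, with a coefficient of variation of 1.47% over 6 libraries. On the per-length TPM scale its coefficient was 4.25%, above that of Fmod at 3.35%. The median over 10697 genes averaging 10 CPM or more in mTEC lo was 7.91% on the CPM scale. The Toll-like receptor accessory gene Tril ranged from 1.64 to 1.98 CPM in mTEC hi (median 1.78) and, in mTEC lo, from 39.4 to 50.5 CPM (median 44.5). Its log2 fold change was -4.63 (SE 0.0781), and in mTEC hi it rested on 79 to 188 reads per library. With the strand columns summed, which restores the reads on the antisense overlap, the value was -4.56.

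The surface genes spanned a wide range of differences. Pdpn had 12.4, 14.4 and 17.8 CPM as its lowest, median and highest values in mTEC hi and, in mTEC lo, 106, 121 and 141 CPM, a log2 fold change of -3.05 (SE 0.0657). Ly6a had 153, 168 and 187 CPM in mTEC hi and, in mTEC lo, 889, 1018 and 1191 CPM, a log2 fold change of -2.62 (SE 0.0611). Plet1 had 17.4, 19.2 and 22.0 CPM in mTEC hi and, in mTEC lo, 42.7, 45.0 and 51.0 CPM, a log2 fold change of -1.27 (SE 0.0639). Plet1 was the member whose groups lay closest, its lowest mTEC lo library being 1.94 times its highest mTEC hi library. Summing the strand columns moved it to -1.29. Without strand, reads of Plet1 and Plet1os on their overlap cannot be told apart. Plet1os outside the overlap had means of 1.13 (mTEC hi) and 1.92 CPM (mTEC lo). Ly6a belongs to a family of similar genes, so its reads could in part be split with relatives. The RSEM estimate, which shares out such reads, gave 0.49 of the read count for Ly6a against 0.444 to 0.484 for Trp63, Lifr, Pdpn, Mgp and Fmod.

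The secreted matrix genes were among those with the largest differences. Mgp had 20.1, 22.0 and 25.7 CPM in mTEC hi and, in mTEC lo, 537, 581 and 708 CPM, a log2 fold change of -4.73 (SE 0.0848). Fmod had 4.88, 5.47 and 5.88 CPM in mTEC hi and, in mTEC lo, 86.3, 96.7 and 103 CPM, a log2 fold change of -4.14 (SE 0.056). For these 2 genes mTEC hi held 3.77% and 5.67% of the mTEC lo mean.

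**Figure D1:**
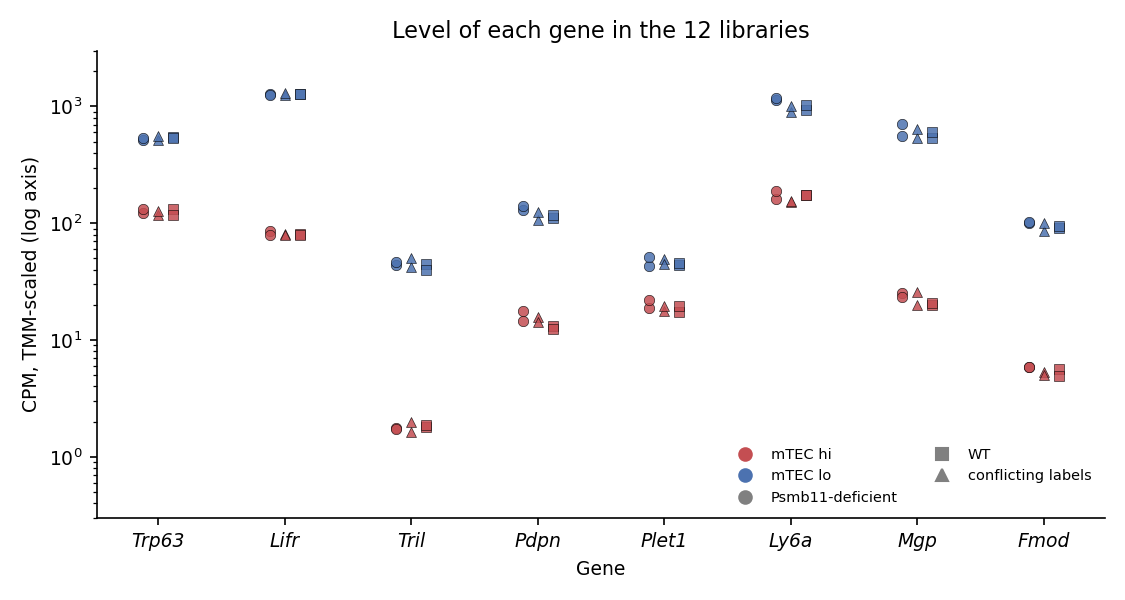
Level of each gene (CPM, TMM-scaled, log axis) in the 12 libraries; each point is a library, red for mTEC hi and blue for mTEC lo, with the marker shape giving the genotype as far as the labels agree. For every gene the 6 blue points lie above the 6 red points, most narrowly for Plet1 (42.7 to 51.0 against 17.4 to 22.0 CPM).

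In the fit over all genes, 8 of the 8 were called lower in mTEC hi, as were 38.0% of the 23923 genes tested (82.1% were called in either direction), and 30.3% of genes were lower with no overlap between the groups of 6. A log2 fold change of -2 or less was reached by 7 of the 8 and by 3.75% of genes, of -3 or less by 5 and 1.12%, and of -4 or less by 3 (Mgp, Tril and Fmod) and 0.192%. Plet1 was the gene above the first of these limits, and Trp63 (-2.09) lay just inside it. The genes were chosen on this contrast, and nothing is read from these counts. The median of the 8 was -3.51 and that of all genes tested was 0.08. Scaling by library size alone moved the median of all genes to 0.37 and the 8 genes with it, Trp63 to -1.81 and Plet1 to -0.99, all still lower in mTEC hi. In bulk RNA, fewer cells of a kind and less RNA per cell cannot be told apart.

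The difference between the cell types was also read within each genotype. Over the libraries whose labels agreed, Mgp had log2 fold changes of -4.71 in Psmb11-deficient and -4.84 in WT cells, Lifr -3.95 and -4.02, and Fmod -4.13 and -4.16. Trp63 had -2.06 and -2.15, Pdpn -3.06 and -3.18, and Plet1 -1.21 and -1.31. Tril (-4.72 and -4.55) and Ly6a (-2.74 and -2.52) were further apart in Psmb11-deficient cells. The contrast of the genotypes across cell types, which tests whether these differ, called 0 of the 8 genes (edgeR quasi-likelihood test, lowest adjusted p = 0.9998) and 0.0% of 26642 genes. At an unadjusted p under 0.05 it held 0 of the 8 and 4.41% of all genes, and DESeq2 called 9 genes and none of the 8. The largest interaction was that of Ly6a, -0.22 on the log2 scale with a 95% interval from -0.53 to 0.08.

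Per length of transcript the 8 genes fell in a clear order, on the TPM scale of the RSEM files. In mTEC lo Ly6a (1851 ± 131 TPM, SD, n = 6) and Mgp (1558 ± 108 TPM) led, and their ranges overlapped. Lifr (190 ± 8.09 TPM), Trp63 (163 ± 9.24 TPM), Pdpn (92.9 ± 5.51 TPM), Plet1 (69.1 ± 5.46 TPM), Fmod (42.8 ± 1.44 TPM) and Tril (14.0 ± 1.29 TPM) followed, with no overlap between neighbours. In mTEC hi Ly6a again led (368 ± 22.5 TPM), ahead of Mgp (74.7 ± 6.53 TPM), Trp63 (47.6 ± 2.65 TPM) and Plet1 (35.0 ± 3.63 TPM). Lifr (15.5 ± 0.406 TPM) and Pdpn (14.3 ± 1.81 TPM) overlapped, and Fmod (3.11 ± 0.222 TPM) and Tril (0.723 ± 0.166 TPM) came last. Lifr thus ranked above Trp63 in mTEC lo and below it in mTEC hi, and Plet1 above Lifr and Pdpn only in mTEC hi. TPM folds were smaller than CPM folds, 20.9 for Mgp and 1.97 for Plet1, and TPM carries no TMM scaling.

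**Figure D2:**
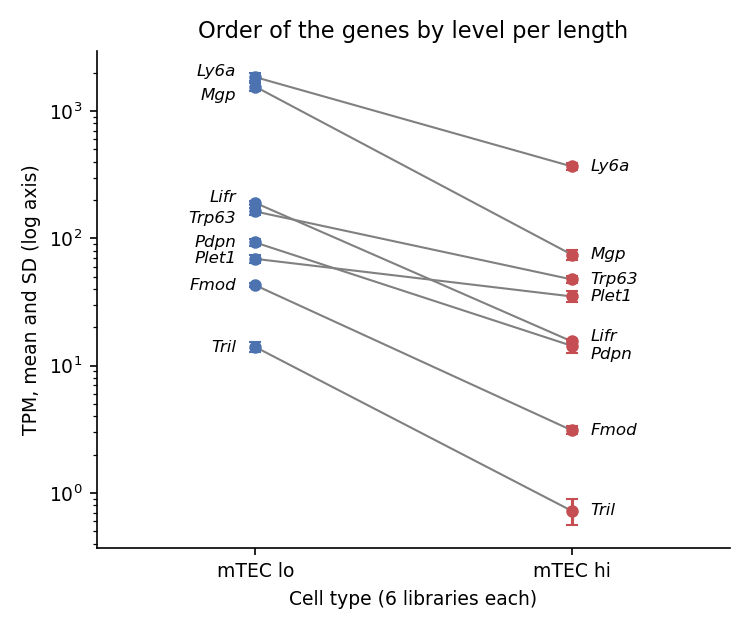
Mean level per length (TPM, log axis) of each gene in mTEC lo and mTEC hi; points are means over 6 libraries, bars are SD, and a line joins the values of a gene. The lines of Lifr and Trp63 cross, and Plet1 has the flattest line (69.1 to 35.0 TPM).

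Within a cell type the 8 genes did not vary as a block. Correlations of log2 CPM over the 6 libraries of a cell type are given as descriptions. All genes of a library share its depth and scaling, and each set of 6 mixes the genotypes. The part of genotype in these correlations was not tested. The median over the 28 pairs of genes was 0.02 in mTEC hi and 0.36 in mTEC lo. In mTEC lo Pdpn moved with Ly6a (r = 0.97) and with Fmod (r = 0.96), Ly6a with Fmod (r = 0.93) and Pdpn with Mgp (r = 0.80). Trp63 moved with Lifr (r = 0.83), although both varied little. In mTEC hi the closest pair was Pdpn and Mgp (r = 0.84), and Tril and Mgp moved in opposite directions (r = -0.83). Several genes also ran against a measure of the libraries, the share of reads that fell on no annotated gene. Its correlation in mTEC lo was -0.88 with Pdpn, -0.83 with Mgp, -0.81 with Fmod and -0.74 with both Ly6a and Tril, against -0.43 with Trp63, -0.28 with Plet1 and -0.20 with Lifr. In mTEC hi the strongest such value was that of Plet1 (r = -0.86). On the CPM scale Pdpn, Mgp and Ly6a had coefficients of variation of 10.3%, 11.3% and 11.0% in mTEC lo, above that of the median gene there. On the TPM scale they were 5.94%, 6.92% and 7.08%. Pdpn and Mgp had 13.2% and 11.7% on the CPM scale in mTEC hi, where the median gene had 6.29%.

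The genes of each member's pathway were taken from lists chosen with earlier results of these data known, so counts over a list are descriptions. Calls were those of the edgeR quasi-likelihood fit over all genes, in which 44.2% of genes were called higher and 38.0% lower in mTEC hi. Of 18 genes of the p63 family and its known targets, 15 fell, 1 rose and 2 were not called, with a median log2 fold change of -1.42. Those that fell included Fgfr2, a receptor for fibroblast growth factors, at 491 ± 18.3 CPM in mTEC lo and, in mTEC hi, 31.9 ± 2.66 CPM (-3.95), and Jag2, a Notch ligand (-3.19). Of 15 other genes of immature and Ccl21a-producing mTECs, several of which also stand on the p63 list, 10 fell and 4 rose (median -1.45). The largest falls by the naming rule were those of the Hedgehog co-receptor Gas1 (-5.33) and the activin antagonist Fst (-4.63). Of 9 transcriptional regulators listed for thymic epithelium 6 fell and 3 rose, with Tbx21, a T-box factor, at 4.63 and Hoxa3 at -3.59. All 10 mature mTEC genes rose, among them Aire (6.84) and the costimulatory ligand Cd86 (4.98). The list includes genes of MHC class II presentation, and surface MHC class II defines the cell types. The rise of those genes is therefore not an independent result.

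The signalling partners of Lifr and Tril were mixed. Of 19 tested genes of LIF and interleukin-6 family signalling (of 20 listed), 11 fell, 7 rose and 1 was not called (median -0.19). Il6st, the partner chain of Lifr, was at 815 CPM in mTEC lo and, in mTEC hi, 88.7 CPM (-3.20), and Socs3, a feedback inhibitor of the pathway, fell by 2.99. Lif, the ligand, was slightly higher in mTEC hi (23.2 against 14.4 CPM, 0.69); it was picked after its value was seen. Of 9 genes of Toll-like receptor 3 and 4 signalling 6 fell and 1 rose, with the lipopolysaccharide-binding protein Lbp at -2.88 and the adaptor Ticam2 at 3.40 (median -1.39).

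The relatives of the surface and matrix genes did not share a direction, and neither did all genes tested (44.2% higher and 38.0% lower). Of 12 other Ly6 family genes 6 rose, 3 fell and 3 were not called (median 0.44), and Ly6g (7.70) and Ly6i (3.91) were higher in mTEC hi, where Ly6a was low. Near-identical members of this family can share reads, so these 2 values are uncertain. Ly6e, outside the naming rule, had the highest mean CPM of the 12 and was lower in mTEC hi (995 against 2276 CPM, -1.19). The 12 genes summed to 1319 to 1482 CPM in mTEC hi and, in mTEC lo, 2385 to 2781 CPM. Of 9 podoplanin partners 6 fell and 3 rose (median -0.74). Ccl21a, which podoplanin binds, was at -4.23 and Lgals8, a galectin, at -1.03. The partner Clec1b, whose mean of 1.83 CPM is under the limit of the naming rule, rose (3.62 against 0.0385 CPM, 6.51). Of 12 other small leucine-rich proteoglycans, the family of Fmod, 6 rose and 5 fell (median 0.46). Aspn stood at 18.2 CPM in mTEC hi and, in mTEC lo, 0.298 CPM (5.96), and Ogn at 3.94 and 0.56 CPM (2.85). Dcn, outside the naming rule, had the highest mean of these 12 and was lower in mTEC hi (39.8 against 182 CPM, -2.19). Together these 12 genes summed to 128 to 154 CPM in mTEC hi and, in mTEC lo, 240 to 392 CPM. Of 11 genes of Gla proteins and mineralisation, the setting of Mgp, 7 fell and 4 rose (median -0.70), with the Gla protein Pros1 at -3.20 and the phosphatase Alpl at 4.78.

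**Figure D3:**
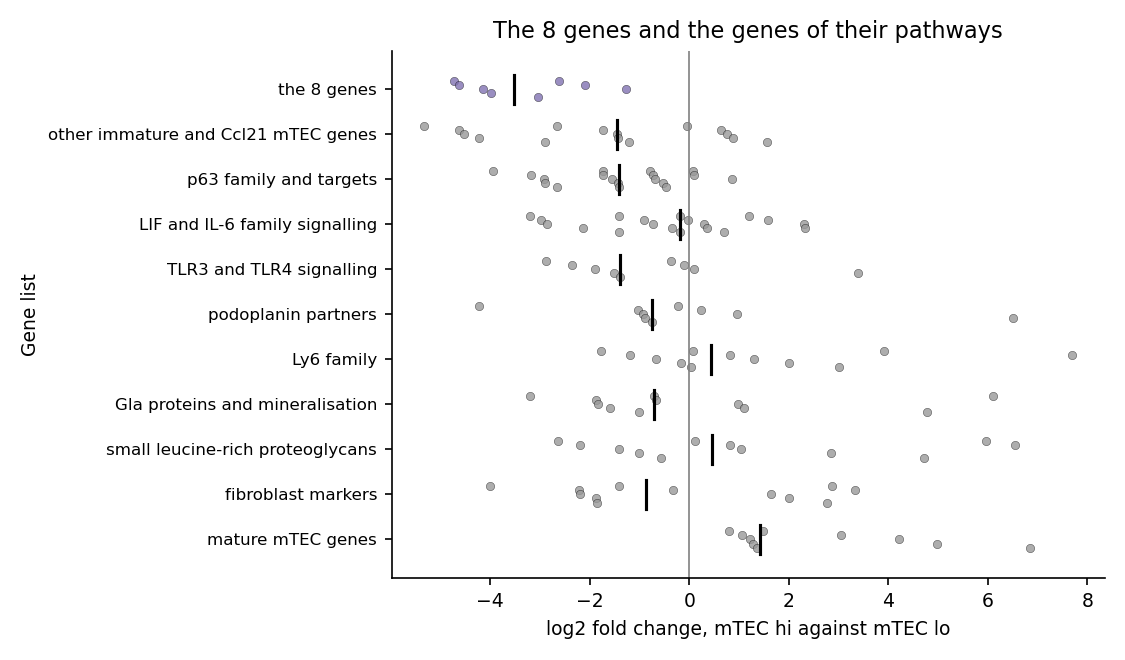
log2 fold change (mTEC hi against mTEC lo) of the 8 genes and of the tested genes of 10 lists; each point is a gene, and the black bar is the median of its row. The 8 genes lie between -4.73 and -1.27, the p63 list is mostly below 0, and the Ly6 family and the small leucine-rich proteoglycans lie on both sides of 0.

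Markers of other cell types were read beside these values, since Ly6a, Pdpn, Mgp and Fmod are also made by stroma. The summed level of 12 fibroblast markers was 393 to 438 CPM in mTEC hi and, in mTEC lo, 2211 to 2583 CPM. Most of that sum in mTEC lo was Col6a1 (1777 CPM, as against 111 CPM in mTEC hi), followed by Fbn1 (243 against 52.6 CPM). The list was split, 7 genes lower and 5 higher in mTEC hi. The collagen gene Col1a1 was higher in mTEC hi (79.4 against 7.88 CPM, 3.34). Among the 7 lower genes, and outside the naming rule, were Dcn (39.8 against 182 CPM, -2.19) and the collagen gene Col3a1 (22.5 against 82.0 CPM, -1.86). No fibroblast marker was under 1 CPM in all libraries of a cell type. Pericyte and smooth muscle markers summed to 1119 to 1190 CPM in mTEC hi and, in mTEC lo, 1697 to 2159 CPM, with Acta2 lower (-3.72), Pdgfrb higher (3.49) and Rgs5 not called (649 and 662 CPM).

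Endothelial markers summed to 83.5 to 109 CPM in mTEC hi and, in mTEC lo, 76.4 to 102 CPM, with Flt1 at 32.4 and 22.3 CPM and Tek at 15.3 and 25.1 CPM. Emcn was under 1 CPM in every mTEC hi library. Blood cell markers summed to 52.2 to 76.6 CPM in mTEC hi and, in mTEC lo, 26.0 to 36.7 CPM. Ms4a1 (4.38 and 0.147 CPM) was under 1 CPM in every mTEC lo library, Adgre1 averaged 20.3 and 0.963 CPM, and Ptprc 17.2 and 24.4 CPM. Of 4 mesothelial markers 3 were higher in mTEC hi, Upk3b (6.74 and 0.122 CPM) and Lrrn4 (16.7 and 0.916 CPM) among them, and Msln was at 186 and 175 CPM. Epithelial markers summed to 4604 to 5279 CPM in mTEC hi and, in mTEC lo, 10964 to 12963 CPM. Krt5 and Krt14, which also stand on the p63 list, led that sum in mTEC lo. Of the 8 epithelial markers 5 were lower and 2 higher in mTEC hi, and 1 was not called. The share of reads on no annotated gene also separated the cell types, at 13.0% to 15.8% in mTEC hi and 7.42% to 11.1% in mTEC lo. The part of these measures in the levels of the 8 genes was not tested.

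By the naming rule, the genes most like each member were those with the highest Pearson correlation of log2 CPM over the 12 libraries, among 10984 genes averaging 10 CPM or more. These values mostly restate the gap between the cell types: between 86 (Plet1) and 1143 (Tril) genes reached r of 0.99 or more. Trp63 was most like Frmd6 and Il6st (r = 0.999 each), Lifr like Boc (0.9996) and Wfikkn2 (0.9995), and Tril like March8 and Boc (0.9994 each). Pdpn was most like Cyp1b1 (0.9989) and Lix1l (0.9987), Plet1 like Heph and Cbr1 (0.9945 each), and Ly6a like Rhoq (0.9983) and Tgtp1 (0.9981). Mgp was most like Tor3a (0.9994) and Pros1 (0.9993), and Fmod like Tor3a and C1s1 (0.9994 each). Within the 6 libraries of a cell type the likeness of some pairs did not hold, as for Lifr and Boc, with r = -0.21 in mTEC hi and 0.66 in mTEC lo. Pdpn and Cyp1b1 stayed close, with 0.95 and 0.80.

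Loss of Psmb11 was compared within each cell type, which the series set out to do for thymic epithelium. Over the 2 Psmb11-deficient and 2 WT libraries of each cell type whose labels agreed, none of the 8 genes was called. In mTEC hi 0 of the 8 passed (edgeR quasi-likelihood test, Benjamini-Hochberg, adjusted p = 1.0 for each), against 0.00375% of 26642 genes, which was Psmb11 itself (-3.07, adjusted p = 0.00457). In mTEC lo 0 of the 8 passed (edgeR, adjusted p from 0.401 to 0.995), against 0.015% of genes, Psmb11 among them (-2.81, adjusted p = 0.00814). DESeq2 called 3 genes in mTEC hi and 146 in mTEC lo, and none of the 8. At an unadjusted p under 0.05, 2 of the 8 stood in mTEC hi (3.45% of all genes) and 2 in mTEC lo (11.3%). All of these were higher in the Psmb11-deficient libraries.

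Pdpn had the largest estimate of the 8 in mTEC hi and shared the largest with Ly6a in mTEC lo. In mTEC hi it stood at 17.8 and 14.6 CPM in the Psmb11-deficient and 13.3 and 12.4 CPM in the WT libraries, and in mTEC lo at 129 and 141 CPM against 112 and 117 CPM. The groups did not overlap in either cell type. The log2 fold changes were 0.35 (95% interval 0.11 to 0.59) in mTEC hi and 0.23 (0.01 to 0.45) in mTEC lo. The mTEC hi value was 0.19 without Psmb11-deficient replicate 1, which held the highest level, and 0.48 without Psmb11-deficient replicate 2. Ly6a did not overlap in mTEC lo, with 1127 and 1191 CPM in the Psmb11-deficient against 939 and 1021 CPM in the WT libraries (0.23, interval 0.02 to 0.45). In mTEC hi it did overlap (162 and 187 against 175 and 174 CPM), with an estimate of 0.01.

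The matrix genes gave smaller or less even values. Mgp in mTEC hi stood at 25.4 and 23.5 CPM in the Psmb11-deficient and 20.1 and 20.6 CPM in the WT libraries (0.27, 95% interval 0.01 to 0.54), without overlap. In mTEC lo it stood at 558 and 708 against 537 and 604 CPM, with overlap. The mTEC lo estimate of Mgp, 0.14, became -0.04 without Psmb11-deficient replicate 2, which held the highest value. Fmod did not overlap in either cell type, with 5.88 and 5.88 against 5.64 and 4.88 CPM in mTEC hi and 101 and 103 against 91.8 and 93.8 CPM in mTEC lo. Its estimates were 0.16 (-0.07 to 0.38) and 0.13 (-0.06 to 0.32).

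For the other 4 genes every interval included 0. Trp63 was estimated at 0.04 (95% interval -0.16 to 0.24) in mTEC hi and -0.05 (-0.25 to 0.15) in mTEC lo, and Lifr at 0.05 (-0.15 to 0.25) and -0.02 (-0.21 to 0.17). Plet1 was at 0.15 (-0.11 to 0.41) and 0.05 (-0.20 to 0.30), and Tril at -0.07 (-0.38 to 0.25) and 0.10 (-0.13 to 0.32). For Lifr in mTEC lo, where the Psmb11-deficient libraries had 1269 and 1263 CPM and the WT libraries 1286 and 1269 CPM, the interval spans ratios from 0.862 to 1.13. With 2 libraries a group, differences of the sizes inside these intervals are not excluded, and larger ones could also go uncalled.

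**Figure D4:**
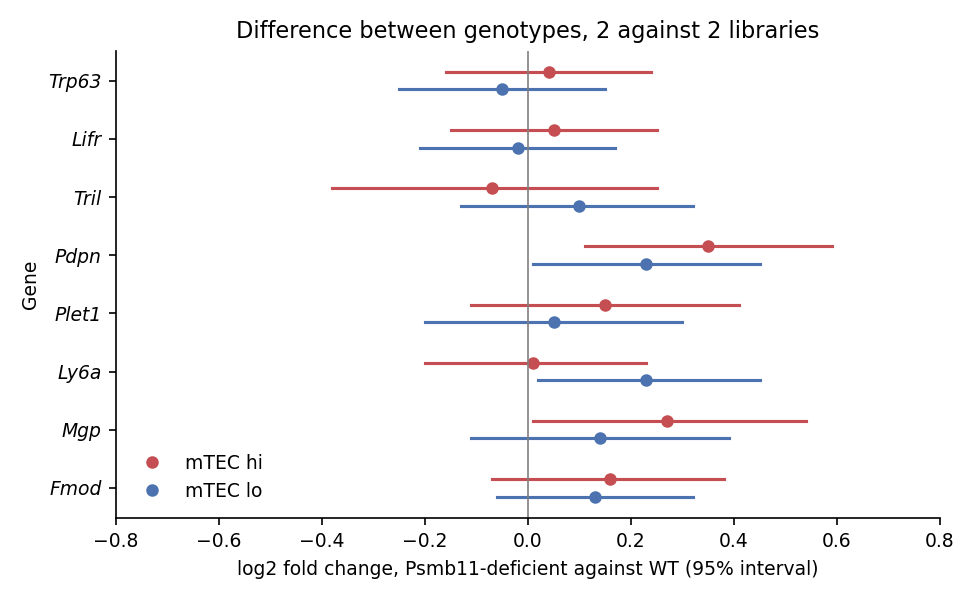
Difference of each gene between Psmb11-deficient and WT libraries (log2 fold change, horizontal axis) in mTEC hi (red) and mTEC lo (blue); points are estimates over 2 against 2 libraries and lines are 95% intervals. The intervals of Pdpn in both cell types, Mgp in mTEC hi and Ly6a in mTEC lo leave 0 on their left, and the others include 0.

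By overlap alone, 3 of the 8 lay above WT in mTEC hi (Pdpn, Mgp and Fmod; 18.5% of all genes did) and 1 below (Tril; 17.7%). In mTEC lo 3 lay above (Pdpn, Ly6a and Fmod; 18.6%) and 1 below (Lifr; 17.7%). On the TPM scale the picture was not the same: in mTEC hi Mgp alone was above (14.7% of all genes) and none of the 8 below (19.5%). In mTEC lo Pdpn and Ly6a were above (10.5%), while Trp63 (150 and 154 against 171 and 173 TPM) and Lifr (178 and 184 against 195 and 198 TPM) were below (23.8%). Fmod overlapped on that scale in both cell types.

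Taking the genotype from the title for all 12 libraries, 3 against 3, again called 0 of the 8 (edgeR, lowest adjusted p = 0.999 in mTEC hi and 0.281 in mTEC lo), against 0.00379% and 0.0114% of genes. In mTEC hi none of the 8 then lay apart (4.84% of all genes above, 5.3% below), and Pdpn overlapped, since the library titled WT of replicate 1 stood at 15.8 CPM and that titled KO of replicate 3 at 14.2 CPM. The mTEC hi estimates were then 0.17 for Pdpn and 0.06 for Mgp, and 0 of the 8 had an unadjusted p under 0.05, against 3.22% of all genes. In mTEC lo Pdpn (125 to 141 against 106 to 117 CPM) and Fmod (99.6 to 103 against 86.3 to 93.8 CPM) lay above (9.2% of all genes above, 7.51% below). At an unadjusted p under 0.05 were 3 of the 8 in mTEC lo, against 14.2% of all genes. On the TPM scale in mTEC lo Pdpn lay above by title as well (2.9% of all genes) and Trp63 and Lifr below (13.3%). In mTEC hi none of the 8 lay apart on that scale (3.65% above, 5.47% below). A pair of library measures split the same way by title. The share of reads on no annotated gene was 7.42% to 9.83% in the mTEC lo libraries titled KO and 10.02% to 11.1% in those titled WT, and 13.0% to 14.8% against 15.3% to 15.8% in mTEC hi. Gene reads in mTEC lo were 65438486 to 68983619 in libraries titled KO, as against 57970614 to 61914385. Their part in the differences of Pdpn and Fmod was not tested.

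**Figure D5:**
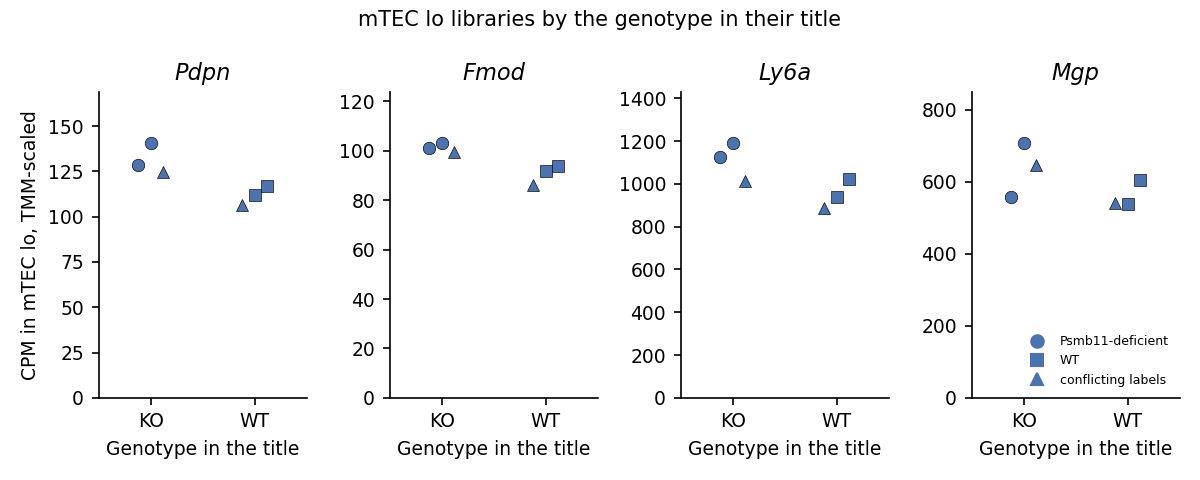
Level (CPM, TMM-scaled, axis from 0) of Pdpn, Fmod, Ly6a and Mgp in the 6 mTEC lo libraries, split by the genotype in the title; circles and squares are libraries whose labels agree and triangles those whose labels conflict. Pdpn and Fmod do not overlap between the titled groups, whereas Ly6a and Mgp do.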

How the data were processed

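The authors deposited, for each of the 12 libraries, raw read counts of genes (whole numbers, not normalized) in a strand-blind column and in a column for each strand. They also deposited expected counts (estimated counts) and TPM from RSEM. CASAVA 1.8.2, STAR 2.5.1b and RSEM 1.2.28 are named in the submitters' processing notes, with the build name GRCh38, although the identifiers are mouse identifiers. The annotation behind the counts is not given in the labels or headers read here. Per the labels' protocols, TRIzol and RNeasy were used for RNA and TruSeq RNA for the libraries. Reads divided about equally between the strand columns, so the strand-blind column was used. Rows that name no gene, which held 21.5% to 27.8% of the reads, stayed out of library sizes and tests. Summed RSEM counts came to 0.507 to 0.535 of the summed read counts.

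Of 50600 identifiers 50376 matched a symbol in GENCODE M21. Low counts were removed by filterByExpr (minimum count 10, minimum total 15), which all 8 genes passed in both fits. Counts were TMM-scaled and tested by the quasi-likelihood F test of edgeR 4.0.16 in R 4.3.3. P-values were adjusted by Benjamini-Hochberg over all genes tested, with a threshold of 0.05. The cell types were compared over 12 libraries with genotype class (Psmb11-deficient, WT or conflicting) as a covariate. A model of 4 groups over the 8 libraries whose labels agree, leaving 4 residual degrees of freedom, gave the genotype differences and their interaction with cell type. RSEM counts were rounded to whole numbers where tested. The fits were tested on simulated data. No library pair within a cell type came closer than a chi-square per gene of 7.77, so each library was counted once. CPM values carry TMM scaling, and standard errors and intervals cover the spread between libraries.

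The 8 genes and the 16 gene lists were chosen with earlier results of these data known. Named list genes are the 2 called between the cell types with the largest change and a mean of 2 CPM or more, and, for markers of other cells, also the 2 of highest mean. A gene that this rule takes is not reported here. Alternatives were RLE size factors, scaling by library size, DESeq2 1.42.0, no filter, RSEM counts, each library left out in turn, title numbers as a replicate block, the 8 libraries without label conflicts, and genotype by title or by source name. The sum of the strand columns was added after the data were seen. Promoter windows are those of RefSeq on GRCm38.p6.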

Additional observations from a re-analysis of the deposited data

Results flagged for a closer look

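Among the 16 groups of 6 libraries (8 genes in 2 cell types), 1 held a library far from the others. Lifr in mTEC hi stood at 86.4 CPM in Psmb11-deficient replicate 1 and at 78.5 to 81.2 CPM in the other 5 libraries. The gap to the next library was 0.667 of the whole range, above the critical value of 0.625 for 6 values. On the TPM scale it was not the highest, at 15.8 TPM against 16.1 TPM in the library titled KO of replicate 3. Chance alone marks about 1 in 20 such groups. The mTEC lo library of the same title stood at 1269 CPM, within the range of its group.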

How the results depend on the processing

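Between the cell types, the 8 genes stayed lower in mTEC hi under every alternative run, and 157 of 168 refitted values moved by less than the spread between libraries. The count of genes called there stayed within 1.5 times of 19649. The balance of those calls moved with the scaling: 53.8% were higher in mTEC hi with TMM, 56.6% with RLE and 67.0% with library size alone. Ranked by CPM per kilobase, 6 of the 8 genes kept their TPM rank in mTEC lo, where Fmod and Plet1 changed places. Between the genotypes and in the interaction, none of the 8 genes was called under any alternative (lowest adjusted p = 0.183).

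The count of all genes called in mTEC hi, 1, became 3 with DESeq2, 42 with no filter, 3 with RSEM counts and 0 by source name, and ranged from 0 to 2 with a library left out. In mTEC lo the count, 4, became 9 with library size alone, 146 with DESeq2, 660 with no filter and 2 by source name, and ranged from 1 to 323 with a library left out. The highest values, 323 and 263, came without Psmb11-deficient replicates 2 and 1 of mTEC lo. The interaction count, 0, became 9 with DESeq2, 141 with no filter and 2 with RSEM counts, and ranged from 0 to 49. With the title number as a replicate block the counts were 45 in mTEC lo and 7 for the interaction. Deviations of libraries of the same title correlated at 0.009 to 0.117, and 3 of 6 correlated best with their own partner. These values do not settle whether the numbers pair the libraries, and the main fits used no pairing. The cause of these changes was not tested.

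Some small genotype estimates changed sign. By source name Trp63 and Ly6a in mTEC hi became -0.02 and -0.01, and Tril in mTEC lo -0.02. By title Tril in mTEC hi became 0.06, and Trp63, Lifr and Plet1 in mTEC lo 0.01, 0.01 and -0.02. With RSEM counts Ly6a in mTEC hi became -0.01 and Lifr in mTEC lo 0.01. The interaction of Pdpn, Mgp and Fmod became -0.06, -0.13 and -0.09 by title, that of Plet1 and Fmod -0.01 and -0.10 with RSEM counts, and that of Plet1 -0.06 by source name. With a library left out, in mTEC hi Trp63 ranged from -0.04 to 0.13, Lifr from -0.02 to 0.12 and Ly6a from -0.09 to 0.11, and in mTEC lo Plet1 ranged from -0.08 to 0.18 and Mgp from -0.04 to 0.31. The interaction then ranged from -0.04 to 0.25 for Pdpn, -0.04 to 0.24 for Plet1, -0.04 to 0.32 for Mgp, -0.06 to 0.15 for Fmod and 0.00 to 0.14 for Lifr. Where a library left out leaves 1 in its group, that library is assumed to vary like the other groups. Depth limits Tril most, with 79 to 188 reads in mTEC hi.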
